A study of Mus musculus with 2 samples.

Results

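Arg1, Nos2, Retnla, Mrc1, Cd163 and Il1b are genes by which macrophage states are commonly read. They were chosen by name, and all 6 were found by symbol among the 27999 genes of each library. The libraries are droplet-based single-cell RNA sequencing of perfused, dissociated lung from female FVB/NJ mice. At 10 weeks of age they had received Met-1 cells, which derive from a mouse mammary carcinoma, through the tail vein. One mouse was taken at week 1 as the model of low metastatic burden, and 1 mouse at week 3 as the model of high metastatic burden. Both mice received the tumor cells, no uninjected lung was part of the comparison, and burden, week, mouse and sequencing depth differ together and cannot be told apart. The comparison asks in which cells these genes were detected in the lung as metastases grew out.

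Macrophages adjust their gene programs to the signals around them. Interferon and microbial products drive a state called classical activation, with inducible nitric oxide synthase (Nos2) and interleukin-1 beta (Il1b) among its products. Interleukin-4 and interleukin-13 act through STAT6 to drive alternative activation, with arginase 1 (Arg1), the secreted resistin-like molecule alpha (Retnla) and the mannose receptor (Mrc1) among its products. Nos2 and Arg1 compete for the same substrate, arginine. Cd163 is a scavenger receptor for hemoglobin bound to haptoglobin and marks many resident macrophages.

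After filtering, 2473 low-burden cells and 3033 high-burden cells were kept, with a median of 4073 and 13998 unique molecular identifiers (UMIs, each standing for 1 captured RNA molecule) per cell. The libraries shared 11 cell barcodes. Cells were put into classes by gates on marker genes, none of them among the 6 genes, and a class name carries the ending "-like" for that reason. The gates gave 51 low-burden and 784 high-burden C1q macrophage-like cells, which carried all 6 of their markers in both libraries. They gave 423 and 3 alveolar macrophage-like cells, 99 and 20 monocyte-like cells (41 and 20 classical, 58 and 0 nonclassical), and 121 and 124 dendritic-like cells. T, B and NK cells, 187 and 48 in number, are called lymphocyte-like and serve as a class that should lack the 6 genes. The other large classes were epithelial, endothelial and fibroblast-like, and 1327 high-burden cells were metastatic-like. Levels are in CPM, the UMIs of a gene per 1000000 UMIs, summed over the cells of a class. As each group is a single library, no difference was tested or checked in a replicate, and every interval is at 95% and covers counting error only.

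For 4 of the 6 genes, the set of RefSeq promoter sequences used here, on GRCm38.p6, holds sequence around the gene start. The 150 bases before the start are shown because the results below turn on how differently these genes were distributed over cell classes. The start was taken as the more upstream of the RefSeq and GENCODE starts. Capitals mark matches on either strand to 4 motifs. The first is TATAAA, the box at which the basal transcription machinery can assemble. The second is GAGGAA, the core bound by PU.1, a transcription factor of macrophages. The spacing that STAT6 can bind was searched as TTCNNNNGAA. The type that C/EBP factors bind was searched as TTGCNNAA. None of the capital runs overlaps another.

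Retnla, chr16:48842401-48842550, plus strand: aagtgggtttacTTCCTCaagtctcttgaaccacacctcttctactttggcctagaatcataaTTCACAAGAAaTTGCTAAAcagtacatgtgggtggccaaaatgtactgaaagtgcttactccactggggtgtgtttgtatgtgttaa

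Mrc1, chr2:14229242-14229391, plus strand: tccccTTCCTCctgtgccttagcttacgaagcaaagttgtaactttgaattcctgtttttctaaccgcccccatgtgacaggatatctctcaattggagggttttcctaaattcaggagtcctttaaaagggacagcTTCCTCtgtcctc

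Cd163, chr6:124304501-124304650, plus strand: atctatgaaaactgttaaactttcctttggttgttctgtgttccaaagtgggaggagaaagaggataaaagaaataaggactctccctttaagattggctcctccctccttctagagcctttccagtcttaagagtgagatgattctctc

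Il1b, chr2:129371140-129371289, minus strand: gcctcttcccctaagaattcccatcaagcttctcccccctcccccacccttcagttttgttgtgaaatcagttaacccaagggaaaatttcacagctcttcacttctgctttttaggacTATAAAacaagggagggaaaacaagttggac

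Retnla held the TTCNNNNGAA and TTGCNNAA spacings side by side, between 87 and 69 bases before its start, and 1 GAGGAA on the other strand. Among 32851 promoter windows of the same length, 3.17% held TTCNNNNGAA, 5.46% held TTGCNNAA, 14.5% held GAGGAA and 7.57% held TATAAA. Those windows all end at the RefSeq start, while the Retnla and Mrc1 windows shown end 58 and 22 bases further upstream. Mrc1 held 2 copies of GAGGAA, Il1b held 1 TATAAA between 31 and 26 bases before its start, and no match lay in the Cd163 window. A match is a string of letters and was not tested as a binding site. The other genes, Arg1 (chromosome 10, 24915221 to 24927484, minus strand) and Nos2 (chromosome 11, 78920787 to 78960254, plus strand), have their gene spans given on GRCm38 by GENCODE.

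Arg1 converts arginine to ornithine and urea. It was almost absent from the low-burden lung, with 16 UMIs in 12 of 2473 cells, and reached 982 UMIs in 228 of 3033 high-burden cells. Of the high-burden UMIs, 73.4% lay in C1q macrophage-like cells. In these cells Arg1 had 0 UMIs in 51 cells at low burden, which allows a share of up to 5.88% of cells with a UMI. At high burden it had 721 UMIs in 124 of 784 cells, a level of 82.3 CPM (76.4 to 88.5). Against the level that 3 UMIs would give in the low-burden cells, it was at least 5.87-fold higher at high burden, a log2 bound of 2.55, which was 1.71 after every cell was reduced to the same depth.

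The cells with Arg1 were a minority of the class. At an equal depth of 3000 UMIs per cell, 10.5% of the 784 high-burden C1q macrophage-like cells held an Arg1 UMI (8.41% to 12.8%), against 0 of 43 low-burden cells. In lymphocyte-like cells the share at that depth was 0.980% at low burden and 0 of 48 cells at high burden, which allows up to 6.25%. Without thinning the high-burden share was 15.8% in C1q macrophage-like cells and 0 in lymphocyte-like cells, at median depths of 10497 and 6535 UMIs. At low burden it was 0 and 2.67%, at 3903 and 3080 UMIs. Among the 124 cells with Arg1, 20 cells held at least 50% of all UMIs, and the highest cell held 43. Expressed per cell, the level ran from 51.3 to 4091 CPM with a median of 278 CPM in the cells that held any.

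Outside this class Arg1 was captured in few cells. Classical monocyte-like cells held 5 UMIs in 2 of 20 cells at high burden, 36.0 CPM (11.7 to 84.1), an interval that overlaps the one of the C1q macrophage-like cells. Dendritic-like cells had 0 UMIs in both libraries, with limits of 3.24 CPM at low burden and 3.04 CPM at high burden, and alveolar macrophage-like cells had 0 UMIs in 423 low-burden cells. Fibroblast-like cells held 0 UMIs in 471 low-burden cells and 7 UMIs over 77 high-burden cells, 9.39 CPM (3.77 to 19.3). Their log2 bound, high over low, was 2.80, so the higher Arg1 was not confined to macrophage and monocyte classes. Metastatic-like cells held 84 UMIs in 1327 cells, 2.61 CPM (2.08 to 3.24). Neutrophil-like cells held 29 UMIs in 2 of the 10 high-burden cells, 262 CPM (175 to 376), a level above that of the C1q macrophage-like cells. Of these UMIs 23 lay in 1 cell, and without it the level was 63.4 CPM. A further 62 high-burden UMIs lay in cells that more than 1 gate claimed and 68 in cells that no gate claimed. None of the 16 low-burden UMIs lay in a macrophage, monocyte or dendritic class: 6 were in T-like cells, 4 in AT2-like cells (the surfactant-producing cells of the alveolus), 5 in cells that more than 1 gate claimed and 1 in a cell of an unnamed gate.

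**Figure D1:**
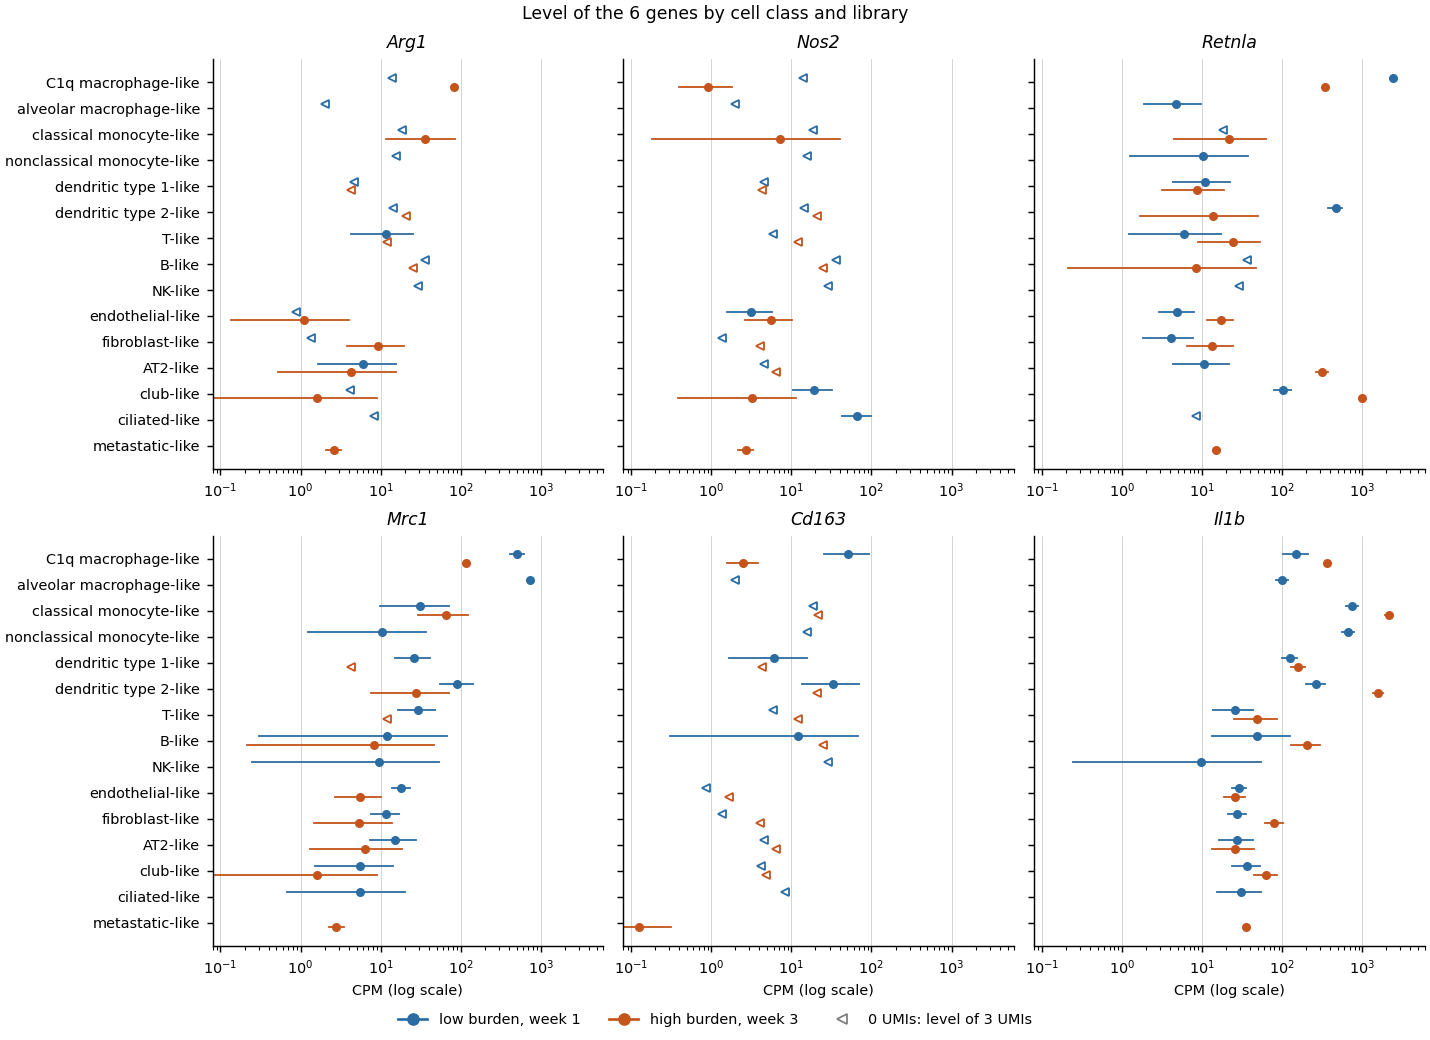
Level of each gene in CPM (log scale) by cell class, for classes with at least 10 cells in a library; points are summed UMIs as CPM, lines the 95% Poisson interval, and open triangles mark 0 UMIs, drawn at the level that 3 UMIs would give. Arg1 stands at 82.3 CPM in high-burden C1q macrophage-like cells and at 0 UMIs in the low-burden ones, and Nos2 is highest in ciliated-like cells at 66.8 CPM.

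Nos2, the inducible nitric oxide synthase set against Arg1 in the same cells, was close to undetected in macrophages. C1q macrophage-like cells had 0 UMIs at low burden and 8 UMIs in 6 of 784 cells at high burden, 0.913 CPM (0.394 to 1.80). Monocyte-like cells held 0 UMIs at low burden and 1 at high burden, and dendritic-like cells and low-burden alveolar macrophage-like cells held none. In the low-burden C1q macrophage-like cells 3 UMIs, the limit used here for a count of 0, would be a higher level than the one at high burden, so a difference between libraries was not detectable at this depth.

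The Nos2 that was captured lay mostly in other cells. At low burden 24 of its 50 UMIs were in 14 of 54 ciliated-like cells, 66.8 CPM (42.8 to 99.4), followed by club-like cells, the secretory cells of the small airways, with 14 UMIs and 19.4 CPM (10.6 to 32.6). These 2 intervals did not overlap, and endothelial-like cells came next at 3.18 CPM (1.59 to 5.69). At high burden 87 of 119 UMIs were in metastatic-like cells, in 40 of 1327 cells and at a level of 2.71 CPM (2.17 to 3.34). That level is low, and the large number of UMIs comes with the number and depth of these cells, whose median was 22383 UMIs. Only 9 ciliated-like cells were caught at high burden, with 2 Nos2 UMIs. In club-like cells the log2 ratio, high over low, was -2.60 (-5.78 to -0.48), from 14 and 2 UMIs.

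Retnla, a small secreted protein induced by interleukin-4 and interleukin-13 in macrophages and airway epithelium, was highest in C1q macrophage-like cells at low burden. They held 523 UMIs, 2445 CPM (2240 to 2664), against 3031 UMIs and 346 CPM (334 to 358) at high burden. On the log2 scale high over low was -2.82 (-2.96 to -2.69), a level 7.07-fold lower at high burden. This ratio rests on 3 cells: of the 10 low-burden cells with Retnla, 3 held 180, 179 and 109 UMIs, and the other 7 held between 1 and 22. Without the 3 cells that held most in each library, the log2 ratio was 0.06, although 3 cells are a larger share of 51 cells than of 784. The share of cells with a UMI did not separate the libraries either. At equal depth it was 16.3% of 43 low-burden cells (6.81% to 30.7%) and 13.1% of 784 high-burden cells (10.9% to 15.7%), against 1.96% and 2.08% of lymphocyte-like cells.

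Without thinning, 19.6% of low-burden and 25.3% of high-burden C1q macrophage-like cells held a Retnla UMI, at median depths of 3903 and 10497 UMIs. In the lymphocyte-like cells these shares were 1.60% and 14.6%, at 3080 and 6535 UMIs, so that part of the unthinned high-burden share is at the level of the class that should lack the gene. Among cells with a UMI the level per cell had a median of 3312 CPM at low burden and 125 CPM at high burden, and its highest values were 44340 and 30649 CPM. The lowest level that a cell with a UMI showed was 260 CPM in the low-burden and 42.8 CPM in the high-burden library, which goes with the depth per cell, so the medians are not comparable between libraries.

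**Figure D2:**
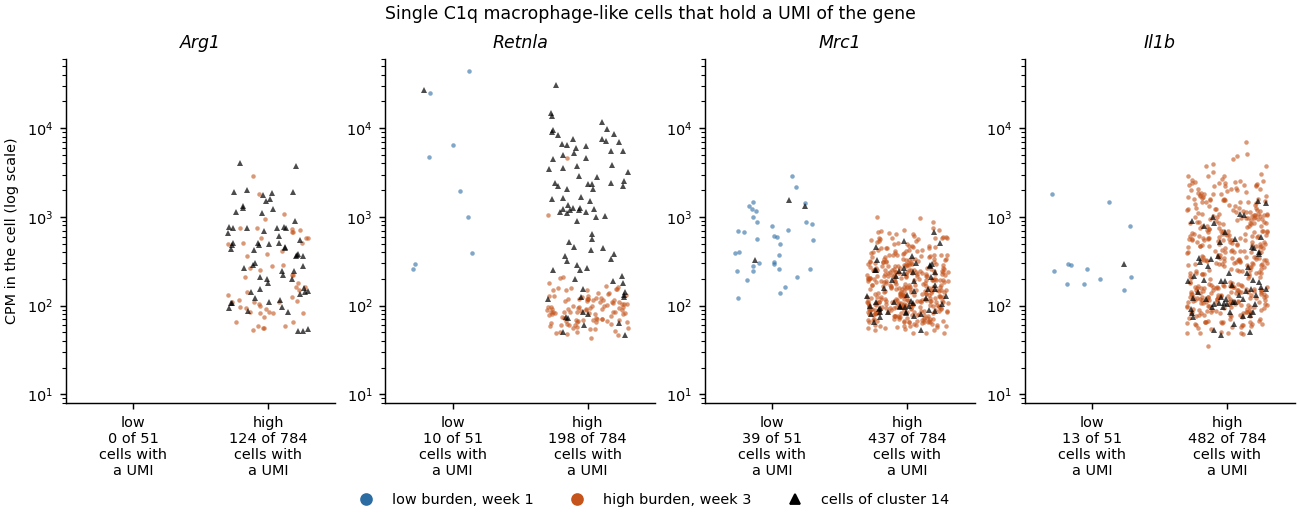
Level of Arg1, Retnla, Mrc1 and Il1b in single C1q macrophage-like cells, in CPM on a log scale, for the cells that held a UMI; each point is 1 cell, its horizontal place within a library is random, and triangles are cells of cluster 14. No low-burden cell held Arg1, and most Retnla values above 1000 CPM at high burden are triangles.

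Among epithelial cells, club-like cells and high-burden AT2-like cells were the other place of Retnla, while ciliated-like cells held 0 and 2 UMIs. Club-like cells held 73 UMIs in 13 of 24 cells at low burden, 101 CPM (79.4 to 127), and 621 UMIs in 21 of 29 cells at high burden, 993 CPM (916 to 1074). The log2 ratio was 3.29 (2.94 to 3.66), the opposite direction to the C1q macrophage-like cells. One high-burden cell held 405 of the UMIs, and without the highest cell of each library the levels were 69.1 and 359 CPM. At equal depth 25.0% and 44.8% of club-like cells held a UMI, with intervals of 9.77% to 46.7% and 26.5% to 64.3%, which overlap. In AT2-like cells Retnla went from 7 UMIs (10.6 CPM) to 147 UMIs (314 CPM), of which 105 lay in 1 cell, and the level without that cell was 92.7 CPM. All 6 C1q macrophage markers had UMIs in the club-like cells of both libraries, with a summed level of 47.1 CPM (low burden) and 414 CPM (high burden), against 13479 CPM in the high-burden C1q macrophage-like cells. Their part in the club-like Retnla was not tested.

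Other large Retnla values came from single cells. In dendritic type 2-like cells, 89 of 97 low-burden UMIs were in 1 of 29 cells, and in neutrophil-like cells 188 of 189 high-burden UMIs were in 1 of 10 cells. Endothelial-like cells went from 4.91 to 17.2 CPM and fibroblast-like cells from 4.04 to 13.4 CPM, beside 4.30 and 18.9 CPM in lymphocyte-like cells. Metastatic-like cells stood at 15.1 CPM (13.8 to 16.5), within the interval of the high-burden lymphocyte-like cells (7.58 to 38.9 CPM). In endothelial-like, fibroblast-like and metastatic-like cells the Retnla interval overlapped that of the lymphocyte-like cells of the same library, so the level was read as background.

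Mrc1, the mannose receptor, was carried by both macrophage classes. At low burden it was highest in alveolar macrophage-like cells, the resident macrophages of the airspace, with 1092 UMIs in 384 of 423 cells and 730 CPM (687 to 775). C1q macrophage-like cells followed at 505 CPM (414 to 610), and these intervals did not overlap. The next class, dendritic type 2-like cells, stood at 90.8 CPM (54.7 to 142). Lymphocyte-like cells held 24.4 CPM at low burden and 2.69 CPM at high burden.

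In C1q macrophage-like cells the Mrc1 level was 118 CPM (111 to 125) at high burden, 4.29-fold lower than at low burden, with a log2 ratio of -2.10 (-2.39 to -1.80). The share of cells differed in the same direction. At equal depth 62.8% of low-burden cells (46.7% to 77.0%) and 28.4% of high-burden cells (25.3% to 31.7%) held a UMI, and these intervals did not overlap. No single cell carried the difference, since the highest low-burden cell held 7 of 108 UMIs and the ratio without the 3 highest cells of each library was -1.91. Across the alternatives run, the ratio stayed between -2.17 and -1.87. Over all cells Mrc1 was 4.59-fold lower at high burden, from 114 to 24.9 CPM, while the alveolar macrophage-like cells, 423 at low burden, numbered 3 at high burden. In dendritic-like cells Mrc1 went from 36 UMIs in 121 cells to 4 UMIs in 124 cells, a log2 ratio of -3.26 (-5.21 to -1.78), and -1.39 when clusters replaced the gates. Their levels were 38.8 and 4.06 CPM, beside 24.4 and 2.69 CPM in lymphocyte-like cells. These went from 17 to 1 UMIs, a log2 ratio of -3.18 (-8.56 to -0.50), so the dendritic-like ratio was not separable from that of the background class. Monocyte-like cells held 7 and 9 UMIs, with a log2 ratio of 1.73 (0.13 to 3.39) that was -0.18 under a stricter gate.

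Cd163 was rare in both libraries, with 28 and 31 UMIs over all cells. C1q macrophage-like cells held 11 UMIs in 8 of 51 cells at low burden, 51.4 CPM (25.7 to 92.0), and 22 UMIs in 15 of 784 cells at high burden, 2.51 CPM (1.57 to 3.80). The log2 ratio was -4.36 (-5.46 to -3.17), a level 20.5-fold lower at high burden. At equal depth 9.30% of low-burden cells (2.59% to 22.1%) and 0.638% of high-burden cells (0.207% to 1.48%) held a UMI. In lymphocyte-like cells the shares were 0.980% and 0. With 48 lymphocyte-like cells at high burden, that 0 is too coarse to tell whether the high-burden share stood above background. In CPM, the next high-burden class with at least 20 cells was metastatic-like, at 0.124 CPM (0.0339 to 0.319), below the interval of the C1q macrophage-like cells. Dendritic-like cells, which held 11 Cd163 UMIs at low burden, 7 of them in dendritic type 2-like cells, held none at high burden. The level there was at least 3.90-fold lower. Alveolar macrophage-like and monocyte-like cells held none.

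**Figure D3:**
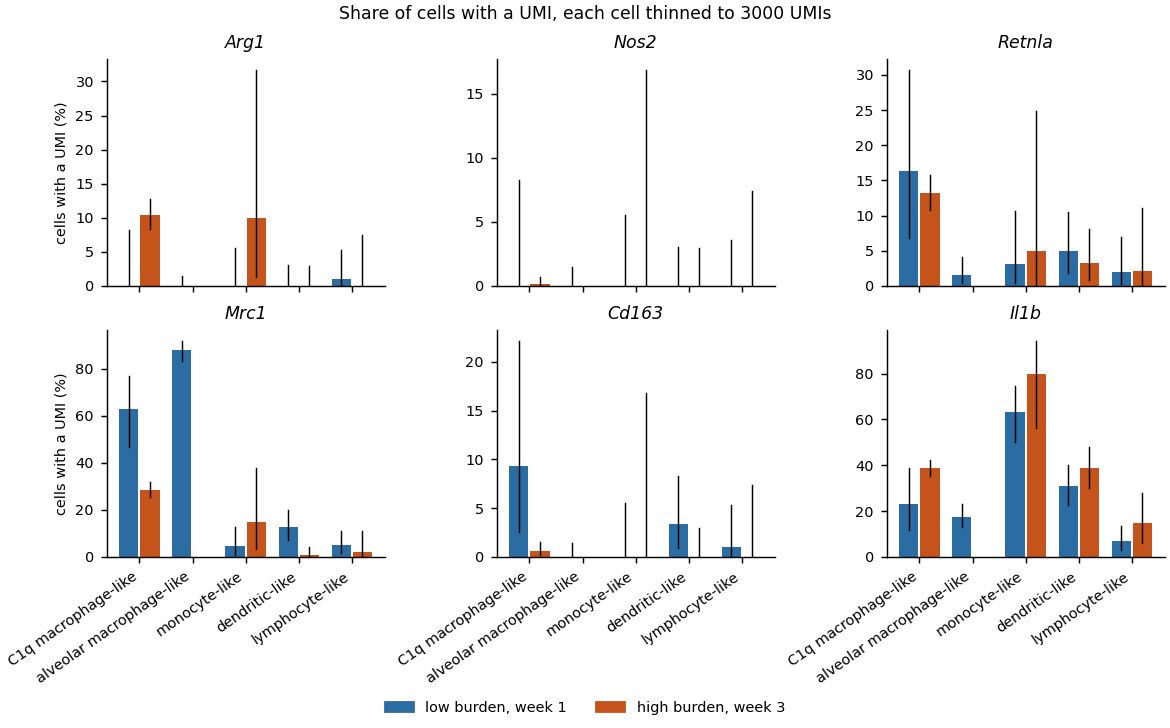
Share of cells with at least 1 UMI of each gene after each cell was thinned to 3000 UMIs, in classes with at least 10 such cells; bars are shares in percent from 0, and lines the exact 95% binomial intervals. For Mrc1 in C1q macrophage-like cells the bars are 62.8% and 28.4%, and for Il1b in monocyte-like cells 63.1% and 80.0%.

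Il1b, the inflammatory cytokine, followed another order of cells. Among classes with at least 20 cells, it was highest in monocytes at low burden, with 747 CPM (621 to 892) in classical monocyte-like and 670 CPM in nonclassical monocyte-like cells, intervals that overlap, followed by dendritic type 2-like cells at 263 CPM (198 to 342). C1q macrophage-like cells held 150 CPM (102 to 211), dendritic type 1-like cells 125 CPM and alveolar macrophage-like cells 100 CPM, with overlapping intervals between neighbours. Neutrophil-like cells, 16 and 10 in number, stood above all of these at low burden, with 3727 CPM (3231 to 4278), and at 1572 CPM (1347 to 1824) at high burden. The neutrophil-like cells were spread over several clusters: 5 of the 16 low-burden cells were in cluster 1, of alveolar macrophage-like cells, and no cluster held more than 2 of the 10 high-burden cells. In the class the alveolar macrophage markers summed to 3542 CPM, all 8 with UMIs, and to 63.2 CPM, with 3 of 8. The C1q macrophage markers summed to 18.4 CPM, 1 of 6 with UMIs, and to 1220 CPM, with 5 of 6, and the part of either in the Il1b and Arg1 levels was not tested.

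Il1b was higher in the high-burden library in C1q macrophage, monocyte and dendritic type 2-like cells, and lower in neutrophil-like cells. The rise was not particular to these classes. Log2 ratios were 1.72 (0.92 to 2.62) in mature dendritic-like, 1.53 (0.99 to 2.07) in fibroblast-like and 0.79 (0.04 to 1.56) in club-like cells. Endothelial-like and AT2-like cells had -0.19 and -0.09, with intervals that include 0. In C1q macrophage-like cells Il1b was 364 CPM (351 to 377), a log2 ratio of 1.28 (0.78 to 1.83). At equal depth 23.3% and 38.9% of cells held a UMI, against 6.86% and 14.6% of lymphocyte-like cells. These shares have overlapping intervals, of 11.8% to 38.6% and 35.5% to 42.4%. One low-burden cell held 12 of the 32 UMIs, and the ratio without the highest cell of each library was 1.89. Monocyte-like cells went from 706 to 2183 CPM, a log2 ratio of 1.63 (1.38 to 1.88), and classical monocyte-like cells alone gave 1.55 (1.24 to 1.86). With clusters in place of gates the monocyte-like ratio was 0.98. The class lay in different clusters in the 2 libraries: 34 of 41 classical and 56 of 58 nonclassical low-burden cells were in cluster 13, and of the 20 high-burden cells 2 were there and 13 in cluster 2, which C1q macrophage-like cells made up for the most part. In monocyte-like cells the 6 C1q macrophage markers, all with UMIs, summed to 132 and 634 CPM. The 8 alveolar macrophage markers summed to 1226 CPM at low burden and, with 4 of them at 0, to 115 CPM at high burden. Their part in the Il1b ratio was not tested. Dendritic type 2-like cells went from 263 to 1572 CPM, a log2 ratio of 2.58 (2.15 to 3.03), and dendritic type 1-like cells from 125 to 159 CPM, 0.35 (-0.08 to 0.78). Of the dendritic type 2-like cells, 12 of 29 at low burden and 13 of 18 at high burden lay in cluster 13, beside the low-burden monocyte-like cells. The part of this in their ratio was not tested. All dendritic-like cells together gave 1.41 (1.14 to 1.69), and a smaller ratio with clusters in place of gates. Lymphocyte-like cells, the class that should lack the gene, held 25.8 CPM at low burden and 97.0 CPM at high burden. Their log2 ratio was 1.91 (1.06 to 2.81), with 14 of the 36 high-burden UMIs in 1 cell.

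The mix of cells changed the sign of Il1b. When C1q macrophage-like and monocyte-like cells were summed together, the level went from 497 to 392 CPM, a log2 ratio of -0.34 (-0.52 to -0.16), although it was higher at high burden in each of them. These cells comprised 51 macrophage and 99 monocyte-like cells at low burden, and 784 and 20 at high burden. The same sum gave Arg1 an at least 15.5-fold higher level, Retnla a log2 ratio of -1.43 and Mrc1 one of -0.79.

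The C1q macrophage-like cells of the 2 libraries were not alike in their other genes, as clusters made without the 6 genes show. Of the 51 low-burden cells 39 fell into cluster 21, which held 11 of the high-burden cells. The high-burden cells lay mainly in cluster 2 (408 cells), cluster 8 (204 cells) and cluster 14 (142 cells). Among high-burden cells of the class, cluster 2 was led by Cxcl9, Cxcl10 and Tnf, which encode interferon-induced chemokines and an inflammatory cytokine. Cluster 8 was led by Clspn, Cenpf and Rrm2, genes of cell division, and cluster 14 by Saa3, Prg4, Alox15, Cd5l and Marco, which include an acute-phase protein, a lipoxygenase and a scavenger receptor. A cluster held mostly by 1 library may reflect that library.

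Arg1 and Retnla were concentrated in the same cluster. Cluster 14 held 67.8% of the class's high-burden Arg1 UMIs and 93.8% of its Retnla UMIs, in 142 of 784 cells. Arg1 stood at 330 CPM (301 to 360) there, against 25.7 CPM (21.3 to 30.8) in cluster 2 and 42.3 CPM (34.4 to 51.5) in cluster 8. Retnla stood at 1917 CPM (1847 to 1988) there, against 27.4 CPM (22.8 to 32.7) in cluster 2 and 24.4 CPM (18.5 to 31.6) in cluster 8, the last 2 within the interval of the high-burden lymphocyte-like cells. Without cluster 14, the log2 bound for Arg1 was 0.98, and Retnla had a log2 ratio of -6.17. Mrc1 and Il1b had the opposite pattern, with 74.8 CPM (61.5 to 90.1) of Mrc1 and 136 CPM (118 to 156) of Il1b in cluster 14, the lowest levels of the 3 clusters. Il1b was 490 CPM (470 to 510) in cluster 2 and 252 CPM (232 to 273) in cluster 8.

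Within cluster 21, the 39 low-burden and 11 high-burden cells could be set side by side. Mrc1 was 535 CPM (426 to 662) and 118 CPM (66.3 to 195), a log2 ratio of -2.17, close to the ratio of the whole class. Il1b was 172 CPM (113 to 250) and 490 CPM (375 to 628), a log2 ratio of 1.51. Retnla had 321 UMIs in 8 of 39 cells and 3 UMIs in 3 of 11 cells, and Cd163 9 UMIs and 0.

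**Figure D4:**
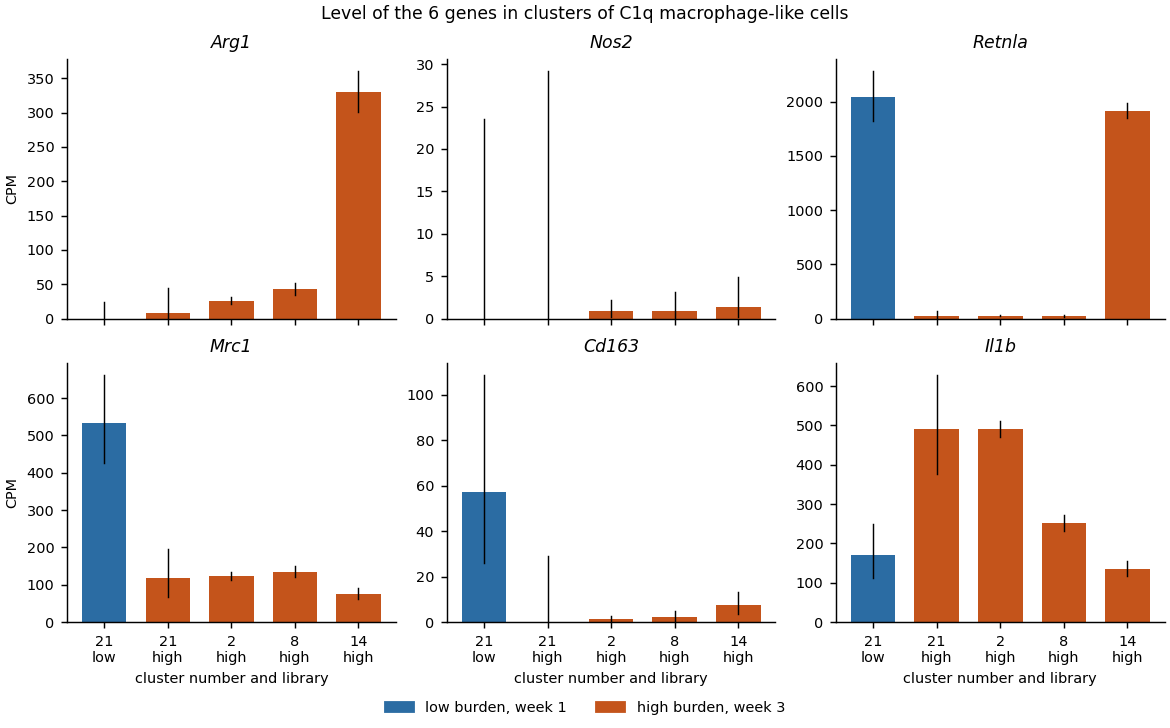
Level of the 6 genes in CPM (linear scale from 0) in clusters of C1q macrophage-like cells, by cluster and library; bars are summed UMIs as CPM and lines the 95% Poisson interval. Cluster 14 has the tallest Arg1 bar, at 330 CPM, and the low-burden part of cluster 21 the tallest Mrc1 bar, at 535 CPM.

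Among single high-burden C1q macrophage-like cells, those with Arg1 held Retnla more often than those without in the counts of this library. At equal depth 40 of 82 cells with Arg1 also held Retnla, 48.8% (37.6% to 60.1%), against 8.97% (6.97% to 11.3%) of the 702 cells without Arg1. Within cluster 14 the shares were 69.8% (55.7% to 81.7%) and 36.0% (26.1% to 46.8%), and outside it 10.3% (2.19% to 27.4%) and 5.06% (3.46% to 7.10%), which overlap. Mrc1 was held by 32.9% of the cells with Arg1 and 27.9% of those without, and Il1b by 34.1% and 39.5%, both with overlapping intervals. Outside cluster 14, however, 62.1% (42.3% to 79.3%) of the 29 cells with Arg1 held Mrc1, against 29.7% (26.1% to 33.5%) of the 613 without. For Il1b and Mrc1 the order was the other way round, and 22.6% (18.0% to 27.7%) of the cells with Il1b held Mrc1, against 32.2% (28.0% to 36.5%) of the cells without, 2 intervals that do not overlap. These shares describe the cells of 1 mouse.

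The 6 genes were set beside 8 lists of related genes in monocyte or macrophage-like cells, the sum of C1q macrophage-like and monocyte-like cells. Of 8871 genes with at least 50 UMIs, 14.7% were higher and 11.7% lower at high burden by 2-fold or more, and the median log2 ratio was 0.04. Of the 6 genes, 4 reached 50 UMIs there, and 1 of them (Arg1) was higher and 1 (Retnla) lower by 2-fold. The 50 UMIs were counted over both libraries, and most came from the high-burden cells, which were more numerous and deeper. Genes lower at high burden therefore passed less easily, which tilts the counts and medians of all lists toward higher genes. Cd163, with 11 and 22 UMIs and a log2 ratio of -2.96, was left out in this way. In C1q macrophage-like cells alone, 14.3% of 8743 genes were higher and 14.3% lower by 2-fold. Again 4 of the 6 genes reached 50 UMIs, and 2 (Arg1, Il1b) were higher and 2 (Retnla, Mrc1) lower.

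Among genes of arginine handling and polyamine synthesis, 11 of 13 reached 50 UMIs, 4 were higher and 1 lower by 2-fold, and the list median was 0.48. Srm, spermidine synthase, went from 8.76 to 84.2 CPM, a log2 ratio of 3.27 (2.04 to 4.89), and Odc1, ornithine decarboxylase, which uses the product of arginase, from 15.8 to 75.0 CPM, 2.25 (1.32 to 3.39). At the other end Ddah2, which degrades an inhibitor of nitric oxide synthases, had a log2 ratio of -1.16 (-1.89 to -0.33), and the arginine transporter Slc7a2 had -0.59 (-1.63 to 0.67). In C1q macrophage-like cells alone 4 genes of the list were higher and 2 lower, with a median of 0.99. Srm and Odc1 had log2 ratios of 3.18 and 2.01 there, and Slc7a2 had -1.62 (-2.80 to -0.13). Of the 3 resistin-like relatives of Retnla, Retnlg alone reached 50 UMIs, with 2 and 89 UMIs and a log2 ratio of 1.51 (-0.38 to 4.58).

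Of the interleukin-1 pathway, 11 of 12 genes reached 50 UMIs, 4 were higher and 3 lower by 2-fold, and the list median was 0.40. Il1a, the other interleukin-1 agonist, had 2 and 402 UMIs, a log2 ratio of 3.69 (1.83 to 6.74), and Il1rn, the receptor antagonist, from 17.5 to 61.7 CPM, 1.82 (0.93 to 2.88). Casp4, an inflammatory caspase, had a log2 ratio of -1.36 (-1.95 to -0.72), and Irak3, an inhibitor of the pathway, -1.67 (-2.67 to -0.52).

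The classical activation list had 22 of 27 genes at 50 UMIs, 11 higher and 2 lower by 2-fold, and a median of 0.98. Cxcl9 had 0 UMIs at low burden and 2223 at high burden, an at least 47.5-fold higher level, and Cxcl10 went from 24.5 to 258 CPM, a log2 ratio of 3.40 (2.65 to 4.27). At the other end stood Cd40, a costimulatory receptor, with -1.01 (-1.57 to -0.40), and Fpr2, a formyl peptide receptor, with -1.36 (-1.98 to -0.69). Nos2 itself, with 0 and 9 UMIs in these cells, was not among the genes that reached 50. In C1q macrophage-like cells alone the list had 9 genes higher and 1 lower, with a median of 0.10.

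The alternative activation list, which leaves out Arg1, Retnla and Mrc1, had 14 of 20 genes at 50 UMIs, 2 higher and 5 lower by 2-fold, and a median of -0.76. In C1q macrophage-like cells alone it had 1 higher and 7 lower of 13, with a median of -1.45. Chil3, a chitinase-like protein, went from 298 to 14.5 CPM, a log2 ratio of -4.36 (-4.70 to -4.02), and Klf4, a transcription factor, from 447 to 91.0 CPM, -2.30 (-2.50 to -2.09). Chil3 was also among the 10 leading genes of the alveolar macrophage gate, whose markers summed to 1226 and 115 CPM in monocyte-like cells. Monocyte-like cells were 99 of the 150 low-burden and 20 of the 804 high-burden cells summed here. The part of either in the Chil3 ratio was not tested. Il4ra, the receptor chain for interleukin-4, was higher at high burden with 26.3 and 76.2 CPM, 1.54 (0.80 to 2.38). Myc had 3 and 104 UMIs and 1.15 (-0.43 to 3.45), but -0.26 (-1.84 to 2.05) in C1q macrophage-like cells alone. Il4 and Il13, the cytokines that drive this state, had 0 UMIs in these cells in both libraries. Counts of Il4 and Il13 in other cell classes are not given here, so this does not describe the whole lung. Of the 10 upstream cytokines 2 reached 50 UMIs: Il10 had 0 and 261 UMIs, an at least 5.58-fold higher level, and Csf1 had a log2 ratio of 0.19 (-1.23 to 2.10), but -0.81 in C1q macrophage-like cells alone, both with intervals that include 0.

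Scavenger and lectin receptors, the family of functions to which Cd163 and Mrc1 belong, were divided, with 4 higher and 4 lower of 13 genes at 50 UMIs and a median of 0.07. Marco had 0 and 1648 UMIs, an at least 35.2-fold higher level, and Msr1 a log2 ratio of 2.44 (1.92 to 3.02). Lyve1 had -2.24 (-2.93 to -1.50) and Cd36 -1.53 (-1.78 to -1.27). In C1q macrophage-like cells alone 2 were higher and 7 lower. Genes linked to macrophages in tumors had 7 higher and 2 lower of 13, with a median of 1.32. Spp1, osteopontin, went from 80.6 to 1658 CPM, a log2 ratio of 4.36 (3.95 to 4.81), and Gpnmb had 1 and 174 UMIs, 3.48 (0.98 to 8.79). The lowest were Cd9 with -1.26 (-1.43 to -1.08) and Vegfa with -1.01 (-1.79 to -0.13).

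**Figure D5:**
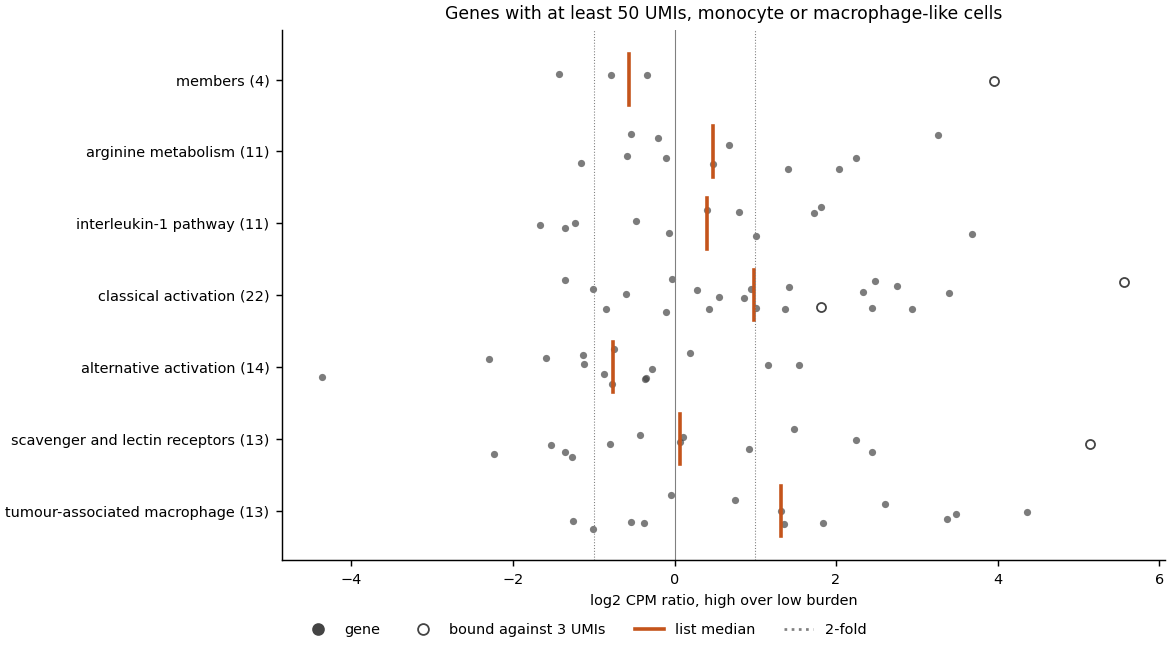
Log2 CPM ratio of high over low burden in monocyte or macrophage-like cells for each gene with at least 50 UMIs, by list; the number of genes is in parentheses, filled points are ratios, open points bounds against 3 UMIs, thick bars list medians and dotted lines 2-fold. The classical activation median is 0.98 and the alternative activation median -0.76.

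The genes whose levels were most like each of the 6 were sought over 26 sums, 1 for each class and library with at least 20 cells. These points share their libraries and differ in depth, and a correlation over them is a description. Arg1 was most like Gbp2b (Pearson's r of log2(CPM + 10) = 0.86), Il10 (0.79) and Prtn3 (0.79). Retnla was most like Alox15 (0.76), C1qa (0.76) and C1qb (0.76), the last 2 being markers that gated the C1q class. Nos2 was most like Stmnd1 (0.94), Tekt1 (0.93) and Efcab10 (0.93), of which Tekt1 encodes a protein of the ciliary axoneme. Mrc1 was most like Cd33 (0.86), Myo7a (0.85) and Cd300lf (0.85), Cd163 like RP23-4H17.3 (0.82), Mgl2 (0.80) and BC037034 (0.80), and Il1b like Lrrc25 (0.95), Ms4a6d (0.92) and Tifab (0.90).

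Markers of other cell types also differed between the C1q macrophage-like cells of the libraries, and their part in the ratios above was not tested. At low burden the 8 alveolar macrophage markers, all with UMIs, summed to 337 CPM, and at high burden to 57.9 CPM with Cidec at 0. The 5 dendritic type 2 markers, with Flt3 at 0 at low burden, summed to 327 and 139 CPM. The 7 neutrophil markers, with Cxcr2 and Stfa2l1 at 0 at low burden, gave 468 and 249 CPM, and the 6 classical monocyte markers, with Vcan at 0 at low burden, 159 and 311 CPM. The 5 club markers had UMIs in both libraries and summed to 3016 and 1504 CPM, and the 8 fibroblast markers to 734 and 321 CPM. The class's own 6 markers summed to 18393 and 13479 CPM.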

How the data were processed

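Single-cell suspensions of 2 lungs, 1 mouse per group, were sequenced on the 10x platform, with groups taken from the sample titles. The authors aligned the reads with Cell Ranger 2.0.2 to mm10 with the PYMT sequence appended, and deposited UMI counts per gene and cell, without normalization. Whether these counts precede the library aggregation that the study names is not stated in the sources used here. Cells with 1000 to 7000 genes and at most 10% mitochondrial UMIs were kept. The 6 genes, the gene lists and the markers were chosen with earlier results of these data known.

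Each cell was scored for 24 classes by its mean log level of 149 measured markers, scaled to the 20 highest cells of the class. A class needed 3 markers, a scaled score of 0.4 and a lead of 0.15 over the next, or the cell counted as mixed; 22 classes kept their names, and the innate lymphoid type 2 and the mast or basophil gates did not. Of 835 C1q macrophage-like cells, 21 lay near these limits and 97.2% fell into clusters of that name (Leiden, scanpy 1.11.5, made without the 6 genes from 2000 variable genes and 10 components). Scrublet marked 0.364% and 0.231% of cells, too few to trust, so doublets were kept.

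Summed counts per class became CPM with exact Poisson intervals, shares exact binomial (Clopper-Pearson) intervals and ratios exact conditional binomial intervals, which cover counting error only. Against 0 UMIs a bound used 3 UMIs per library and class, and the limit on a share of 0 was 3 cells of the total. Shares of cells were also taken after thinning to 3000 UMIs, which left out 607 low-burden and 0 high-burden cells. Named genes were the 6, the 2 highest and 2 lowest ratios of each list, and the 3 genes most alike to each of the 6 with at least 200 UMIs; lower-ranked list genes are given in counts, Il4 and Il13 were named after their values were seen, and so were the leading genes of clusters. Acod1 was matched under an older symbol, and Cxcl11, Clec7a, Trac and Trbc2 were not found among the measured genes. Alternatives were clusters in place of gates, a stricter gate, no cell filter, removal of Scrublet-marked cells, thinning, median-of-ratios scaling, subtraction of the lymphocyte-like level, removal of the top cell and another minimum for list genes. The ratios with their intervals and the thinning were tested on simulated data, and the bounds against 0 UMIs were not. Gene coordinates are from GENCODE M21 (GRCm38, the assembly of mm10).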

Additional observations from a re-analysis of the deposited data

Results flagged for a closer look

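Retnla ratios had opposite signs in different cells under the same contrast. On the log2 scale, high over low burden gave -2.82 (-2.96 to -2.69) in C1q macrophage-like cells, and 0.059 without the 3 cells that held most in each library. It was 3.29 (2.94 to 3.66) in club-like cells, where 405 of 621 high-burden UMIs lay in 1 cell, and 4.88 (3.80 to 6.22) in AT2-like cells, where 105 of 147 did. It was 1.81 (0.91 to 2.75) in endothelial-like cells and 1.73 (0.28 to 3.21) in fibroblast-like cells. The levels of the endothelial-like and fibroblast-like cells overlapped those of lymphocyte-like cells and were read as background. The difference between these classes was not tested, since each group is 1 mouse. Among lymphocyte-like cells the ratio was 2.13 (0.00 to 4.72), from 3 and 7 UMIs.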

How the results depend on the processing

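No paired analysis was possible because each group has 1 library. Of 157 alternative values for member ratios whose interval or bound excluded no difference, 152 kept their direction. Where a library held no UMI, a bound was given only if it excluded no difference, and otherwise the value was left out. Such values could not count as reversed, and Arg1 in cluster 21 alone was left out in this way. Among all 490 alternative values, which include levels, shares and counts, 98 moved, 7 reversed and 385 were counted as the same. No value moved beyond its counting interval when the cell filter was dropped or when Scrublet-marked cells were left out. Leaving out cluster 14, keeping cluster 21 or 14 alone and leaving out 3 top cells were chosen after seeing the data. Where a value moved, the cause was not tested. Nos2 and Cd163 rest on few UMIs, and every C1q macrophage-like ratio rests on 51 low-burden cells.

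With clusters in place of gates, log2 ratios were 2.76 for Arg1 and 0.78 for Il1b in C1q macrophage-like cells, 0.98 for Il1b in monocyte-like cells, and 0.51 for Retnla (reversed), -1.39 for Mrc1 and 0.27 for Il1b in dendritic-like cells. High-burden levels were 659 CPM for Retnla in club-like, 109 CPM for Mrc1 in C1q macrophage-like, 1251 CPM for Il1b and 0 for Nos2 in classical monocyte-like cells. With a stricter gate, log2 values in C1q macrophage-like cells were 2.37 for Arg1 and -3.07 for Retnla (2889 CPM at low burden). Retnla was 1102 CPM in high-burden club-like cells, and the ratio was -0.18 for Mrc1 in monocyte-like cells (reversed).

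After thinning, the C1q macrophage-like Arg1 bound was 1.71 (level 76.1 CPM), Cd163 in dendritic-like cells -0.78, Mrc1 in alveolar macrophage-like cells 0.36, and Nos2 0.17 (reversed), Retnla 0.80, Mrc1 -1.78 and Il1b 0.90 over all cells, with Nos2 at 0 in classical monocyte-like cells. Under median-of-ratios scaling, which set to 0 a median log2 ratio over genes that was -0.22 in C1q macrophage-like cells, -0.44 over all cells and 0.64 in alveolar macrophage-like cells, Arg1 was 2.78 and Retnla -2.60 in C1q macrophage-like cells, and Retnla 1.05, Mrc1 -1.76 and Il1b 0.85 over all cells; levels were 1660 CPM for Retnla in club-like, 679 CPM for Mrc1 in alveolar and 111 CPM in C1q macrophage-like cells. With the lymphocyte-like level subtracted, values over all cells were 6.40 for Arg1, 0.39 for Retnla, -2.02 for Mrc1, -0.16 for Cd163 and -1.21 for Il1b (reversed), Retnla in dendritic-like cells was -5.16, and Arg1 in low-burden T-like cells 3.14 CPM.

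Without the top cell of each library, Retnla was -2.37 in C1q macrophage-like (1656 CPM at low burden), -0.91 in dendritic-like and 0.83 in all cells, and 359 CPM in club-like cells; Il1b was 1.89 in C1q macrophage-like cells and 1913 CPM in classical monocyte-like cells; Mrc1 was -2.18 in alveolar macrophage-like cells, with 2 cells left at high burden, and Nos2 was 0 in classical monocyte-like cells. Without 3 top cells per library, C1q macrophage-like Arg1 was 2.25, Retnla 0.059 (reversed) and Il1b 2.65. In their cluster 21 alone, Retnla was -6.43 and Cd163 -1.27. Without cluster 14, Arg1 was 0.98 and Retnla -6.17.

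The share of cells with the second gene among cells with the first, minus that among cells without, was in the class without thinning 36.1 percentage points for Arg1 then Retnla, 3.72 for Arg1 then Mrc1, -3.62 for Retnla then Mrc1, -6.28 for Il1b then Mrc1, -4.06 for Arg1 then Il1b and -11.3 for Retnla then Il1b. Without cluster 14 the first 4 were 12.5, 26.6, 8.09 and -11.9, and in cluster 14 alone the last 3 were 1.88, 12.3 and 1.01. All 3 of these changed sign, as did Retnla then Mrc1 without cluster 14, and Arg1 then Il1b, which was 1.05 without it.

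Among gene lists, counts of genes lower by 2-fold moved. With at least 1 UMI in each library in place of 50 UMIs they were 2667 for all genes, 3 for arginine metabolism and 4 for classical activation. With clusters they were 0, 1 and 1 for arginine metabolism, classical activation and tumor-associated genes, and with median-of-ratios scaling 0, 1 and 1, and 3 for alternative activation; that scaling gave 1681 genes higher and 741 lower over all genes, against 1302 and 1041.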
